A study of Rattus norvegicus with 8 samples.

Results

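Cholesterol synthesis in rat kidney was described through 8 listed genes of the mevalonate and sterol route, Hmgcs1, Idi1, Fdps, Fdft1, Sqle, Lss, Cyp51 and Dhcr7. They were chosen by name, and a gene counted as measured where the array's annotation gave a probe set that symbol and no other. This held for 7 of the 8, each through 1 probe set, out of 18166 genes in all, and the level of Hmgcs1 is not analysed here. The tissue came from male Wistar rats 10 weeks old and was hybridised to Affymetrix whole-transcript arrays, 4 labelled cortex and 4 labelled medulla. All 8 arrays share 1 treatment label, ethylene glycol every day and vitamin D every other day for 1 week. Ethylene glycol is broken down to oxalate, and together with vitamin D it is used to raise calcium oxalate crystals in the kidney. No array analysed here is labelled untreated, so every level below is a level under treatment. The labels do not tie arrays to animals, and the p-values therefore speak to array-to-array spread alone, part of which may be technical.

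The route starts from acetyl-CoA, which Hmgcs1 and the reductase after it turn into mevalonate. Idi1 and Fdps build the isoprenoid farnesyl diphosphate, Fdft1 joins it into squalene, Sqle and Lss oxidise and fold squalene into lanosterol, and Cyp51 and later enzymes down to Dhcr7 trim lanosterol to cholesterol. Most cells run the route, and its genes are textbook targets of the transcription factor SREBP-2, which is held in the endoplasmic reticulum by Scap and Insig proteins when sterol is plentiful and released when it is scarce. Dhcr7 also consumes the sterol from which skin makes vitamin D.

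The median intensity of an array was 34.1 to 34.7. Replicate numbers were given here in the order of the samples within each region, and a shared number does not pair arrays. The replicate 4 array of each region stood apart from the rest of the series: Havcr1, the tubular injury gene, measured 11.27 log2 intensity on cortex replicate 4 and 11.32 on medulla replicate 4, against 4.54 to 8.95 on the other arrays, and Umod, a thick ascending limb gene, measured 10.73 and 10.54 against 11.36 to 11.89. Results on the members are therefore given with and without these arrays. The region labels were checked against defining markers. All 10 measured proximal tubule genes and all 4 measured podocyte genes had a lower mean in medulla, yet 0 passed the test, and the summed intensity of the proximal tubule list was 9523 to 13916 on the medulla arrays against 12311 to 15342 on the cortex arrays, so the arrays of both regions overlapped in it. Medullary lists were mixed, with 4 of 6 thick ascending limb genes and 3 of 5 principal cell genes of the collecting duct higher on average in medulla. In both lists 0 passed. All 5 measured urothelium genes had a higher mean in medulla, and 0 passed. Their summed intensity was 441 on medulla replicate 1 against 199 to 239 on the other medulla arrays. Markers of steroid-making adrenal cortex and of liver, other tissues rich in sterol synthesis, ranged by at most 0.31 and 0.26 log2 units within a region, and their summed intensity was 154 to 162 and 128 to 134 on the 8 arrays. Their log2 levels ran from 4.25 to 5.29 and from 4.46 to 5.05, against a lower quartile of 4.44 to 4.48 for an array. A narrow range so close to that quartile says little about their amounts. In bulk tissue, fewer cells of a type and less RNA per cell cannot be told apart.

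Promoter windows of the RefSeq table (assembly GRCr8) were matched for 6 of the 8 listed genes; those of Sqle and Fdft1 are not analysed here. The 4 windows below, of 3 measured genes with a CCAAT box and 1 without, are shown because these boxes bind NF-Y, the textbook partner of SREBP-2 at sterol genes. Each runs 5′ to 3′ over the 150 bases before the transcription start, with capitals marking CCAAT and GGGCGG, the GC box, on either strand (ATTGG and CCGCCC on the reverse). Lss lies at chr20:12118231-12118380, Fdps at chr2:176804817-176804966 and Idi1 at chr17:66547525-66547674, all on the minus strand, and Dhcr7 at chr1:208444284-208444433 on the plus strand.
Lss: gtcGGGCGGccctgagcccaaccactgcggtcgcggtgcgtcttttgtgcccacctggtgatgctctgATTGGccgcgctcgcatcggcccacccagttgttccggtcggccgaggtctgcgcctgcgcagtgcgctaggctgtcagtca
Fdps: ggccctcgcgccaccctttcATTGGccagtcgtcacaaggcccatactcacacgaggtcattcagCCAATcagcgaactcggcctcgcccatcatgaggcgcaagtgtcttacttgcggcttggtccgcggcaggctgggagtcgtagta
Idi1: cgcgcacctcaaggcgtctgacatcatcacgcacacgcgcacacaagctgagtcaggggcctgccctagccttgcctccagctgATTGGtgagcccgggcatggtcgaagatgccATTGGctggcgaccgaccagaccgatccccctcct
Dhcr7: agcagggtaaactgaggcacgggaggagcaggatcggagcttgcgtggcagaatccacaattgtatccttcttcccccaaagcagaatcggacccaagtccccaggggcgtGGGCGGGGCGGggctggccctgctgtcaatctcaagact

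In the 250 bases before the start, CCAAT on either strand was found in 4 of the 6 matched genes, Hmgcs1, Fdps, Idi1 and Lss, against 34% of all 33469 promoters in the table. Hmgcs1, Fdps and Idi1 held 2 such boxes each. In Fdps the boxes began 130 and 85 bases before the start, and in Idi1 66 and 35 bases. The GC box was found in 5 of 6, all but Idi1, against 30.5% of promoters, and in Dhcr7 a pair of them began 39 and 34 bases before the start and shared a base. The sterol regulatory element core CACCCCAC was in 0 of 6 and in 2.32% of all promoters, and with a free base, CACNCCAC, in 0 of 6 and 4.89%, which says only that these letters are not in these windows. TATAAA was found in Hmgcs1 alone of the 6, against 12.9% of all promoters. These matches are a description of the sequence.

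Each of the 7 measured members spanned less than 2-fold over the arrays of a region, and none was called between the regions. The widest range was that of Sqle in cortex, 0.59 log2 units, and the narrowest that of Idi1 in cortex, 0.17 log2 units or 1.13-fold. Levels of different genes are not set against each other, because probe sets differ in brightness.

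Idi1, which isomerises isopentenyl diphosphate, was at 6.30, 6.47, 6.30 and 6.38 on the log2 intensity scale over cortex arrays 1 to 4, and at 6.28, 6.25, 6.36 and 6.46 over medulla arrays 1 to 4, the order kept below. Its values overlapped between the regions, and the highest were on cortex replicate 2 and medulla replicate 4. Fdps, the farnesyl diphosphate synthase, was at 6.96, 6.73, 6.72 and 6.92 over the cortex arrays and at 6.89, 6.89, 6.52 and 6.90 over the medulla arrays. Medulla replicate 3 was its lowest array, and the other 3 medulla arrays lay within 0.0034 log2 units of each other. The RefSeq table names 5 pseudogene copies of Fdps, 1 of Idi1 and 1 of Cyp51, and whether probes also bind their RNA was not tested.

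Fdft1, the squalene synthase that commits farnesyl diphosphate to sterols, was at 8.31, 8.46, 8.23 and 7.93 over the cortex arrays and at 8.54, 8.48, 8.04 and 8.00 over the medulla arrays. The replicate 4 array was the lowest of both regions, and medulla replicate 3 lay close to it. Without the replicate 4 arrays its range was 0.22 in cortex, against 0.53 with it, and 0.51 in medulla, against 0.54. Sqle, the squalene epoxidase and a rate-limiting enzyme of the route, was at 6.52, 6.57, 6.52 and 7.11 over the cortex arrays and at 6.94, 6.70, 6.70 and 7.15 over the medulla arrays. Here the replicate 4 array was the highest of both regions, 0.57 and 0.37 above the mean of the other 3. The other 3 cortex arrays lay within 0.047 log2 units, against a cortex range of 0.59 with replicate 4, and the medulla range was 0.24 without replicate 4 and 0.44 with it. Lss, the lanosterol synthase, was at 6.86, 6.89, 6.76 and 6.58 over the cortex arrays and at 6.86, 6.91, 6.52 and 6.61 over the medulla arrays. Its lowest arrays were cortex replicate 4 and medulla replicate 3, and its cortex range was 0.14 without replicate 4 and 0.31 with it.

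Cyp51, the lanosterol demethylase, was at 6.60, 6.78, 6.50 and 6.93 over the cortex arrays and at 6.83, 6.78, 6.60 and 6.70 over the medulla arrays. Cortex replicate 4 was its highest array in cortex, and in medulla replicate 1 was. Dhcr7, which makes cholesterol in the last step, was at 7.51, 7.89, 7.87 and 7.39 over the cortex arrays and at 7.41, 7.76, 7.39 and 7.45 over the medulla arrays. Cortex replicates 2 and 3 and medulla replicate 2 were high and the other 5 arrays lay between 7.39 and 7.51, so that high values occurred in both regions.

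**Figure D1:**
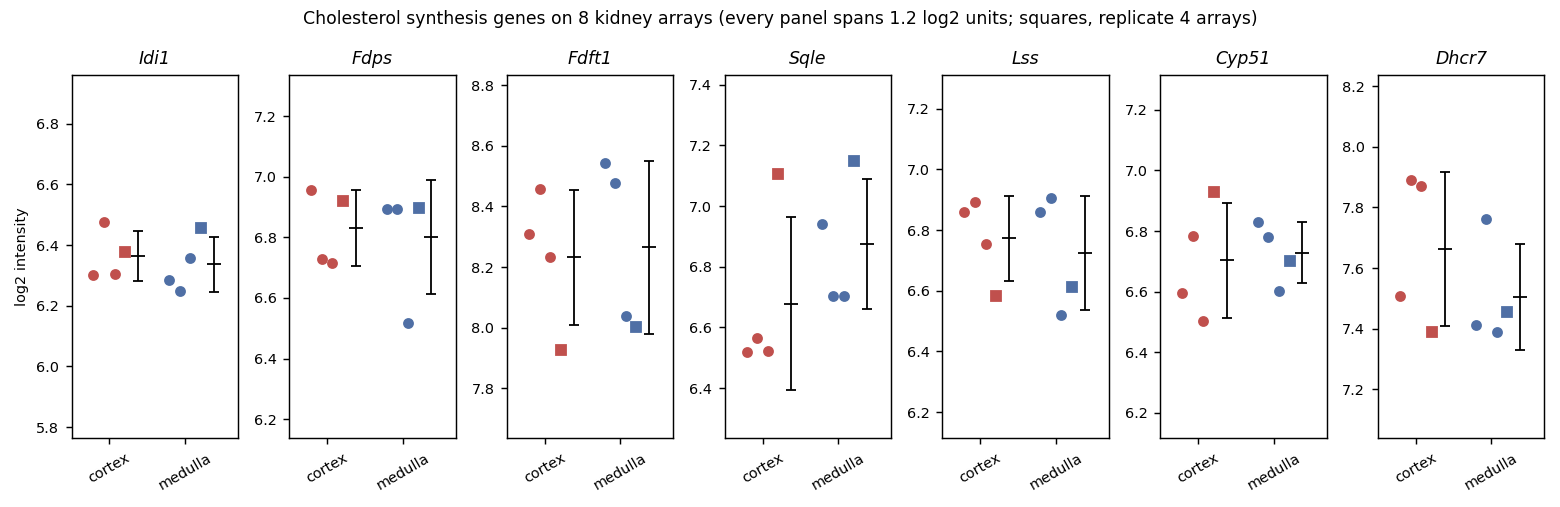
Log2 intensity of the 7 measured cholesterol synthesis genes on the 4 cortex (red) and 4 medulla (blue) arrays, replicates 1 to 4 from left to right with replicate 4 as a square, and the mean ± SD of each region in black; every panel spans the same 1.2 log2 units. The regions overlap for every gene, Sqle is highest on both replicate 4 arrays and Fdft1 is lowest on both.

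The design's 1 contrast of groups sets medulla beside cortex. Sqle averaged 6.68 ± 0.29 (SD, n = 4) over the cortex arrays and 6.87 ± 0.21 (SD, n = 4) over the medulla arrays. Medulla minus cortex was 0.20 log2 units (SE 0.16), and the 95% interval ran from -0.18 to 0.57. Dhcr7 averaged 7.66 ± 0.25 (SD, n = 4) and 7.50 ± 0.17 (SD, n = 4), which differ by -0.16 (SE 0.14), and its interval ran from -0.49 to 0.17. These were the widest differences of the 7, and neither exceeded the spread between arrays. The differences of the other 5 were at most 0.049 in size. Their intervals ran from -0.17 to 0.11 for Idi1, from -0.27 to 0.21 for Fdps, from -0.35 to 0.41 for Fdft1, from -0.30 to 0.20 for Lss and from -0.20 to 0.26 for Cyp51. The sign was positive for 3 members and negative for 4, with a median of -0.03 against -0.01 over all genes.

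By limma with Benjamini-Hochberg adjustment over all genes, 0 of 7 members passed (an adjusted p below 0.05 and at least 2-fold), where 0% of all genes passed as higher and 0% as lower in medulla. An unadjusted p under 0.05 was reached by 0 of 7 members and by 5.35% of all genes. limma's adjusted p lay between 0.887 and 0.982 for the members. The exact two-sided permutation test, which can give no p under 0.0286 with 4 against 4 arrays, gave 0.257 for Sqle and for Dhcr7, 0.657 for Idi1, 0.743 for Fdps and Lss, 0.771 for Cyp51 and more for Fdft1, or 0.881 to 0.971 after adjustment over all genes. The values of the regions overlapped in 7 of 7 members, and did not overlap in 2.83% of all genes. The 95% interval lay within 2-fold for 7 of 7 members and for 97% of all genes, so a share near the background is all that these intervals show. For Sqle the interval reached up to 1.48-fold, the widest bound of the 7. Without both replicate 4 arrays the differences were 0.25 for Sqle and -0.23 for Dhcr7, with limma's adjusted p at 0.892 for both, and those of the other 5 lay between -0.075 and 0.11.

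**Figure D2:**
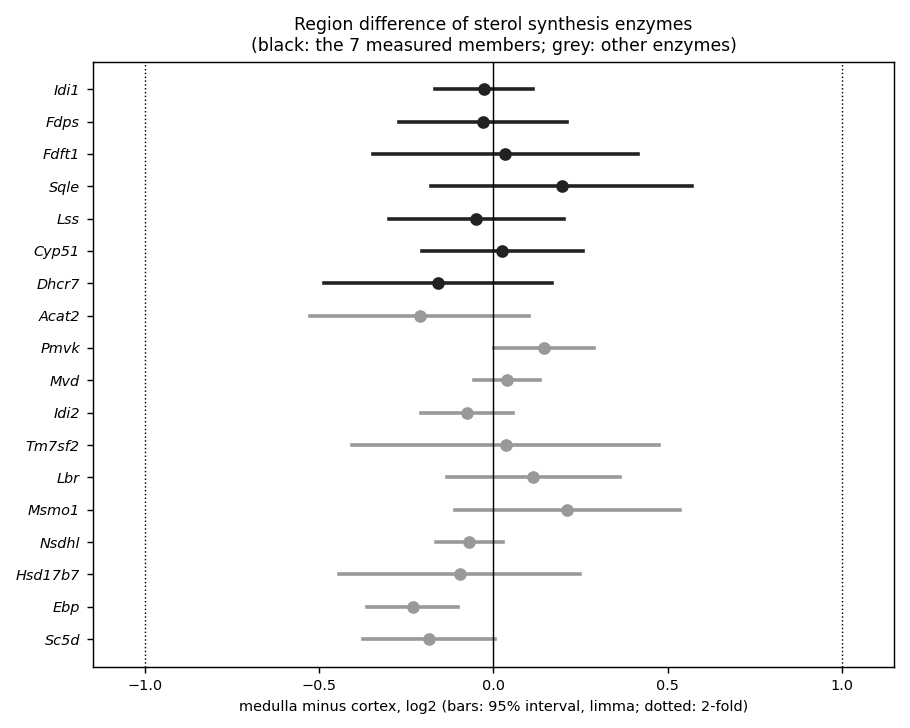
Medulla minus cortex difference in log2 intensity for the 7 measured members (black) and 11 other enzymes of the route (grey), with limma's 95% interval as a bar and dotted lines at a 2-fold difference. All 18 intervals lie inside the dotted lines, as do those of 97% of all genes, and those of the members all cross 0.

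The design text of the series selects genes that varied at least 2-fold in cortex and in medulla, without saying which arrays were compared, so the range of each gene over the 4 arrays of a region was described. A 2-fold range was reached by 0 of 7 members in cortex, by 0 of 7 in medulla, by 0 of 7 in both and by 0 of 7 in either, against 3.6%, 3.8%, 2.21% and 5.19% of all genes. With 7 genes, these counts are near that background. The median range of the members was 0.42 log2 units in cortex and 0.38 in medulla. Over all genes it was 0.21 and 0.25, and over genes above the 30th percentile of mean signal 0.28 and 0.35. The cortex range of Sqle exceeded that of 88.7% of all genes, that of Fdft1 86.5% and that of Idi1 41.1%. Without the replicate 4 arrays the median range of the members was 0.22 in cortex and 0.37 in medulla, against 0.14 and 0.18 over all genes. The cortex range of Sqle, 0.047 without replicate 4, then exceeded that of 13% of all genes, that of Fdft1 73.7%, that of Idi1 62.1% and that of Dhcr7 91.5%, so the high rank of Sqle rests on cortex replicate 4.

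The members did not move as 1 block. Their mean deviation, the log2 value minus the mean of the region averaged over the 7, lay between -0.16 and 0.08 on the 8 arrays. On cortex replicate 4 and medulla replicate 4 it was -0.0023 and 0.0053, with 4 of 7 and 3 of 7 members above the mean of the region. The replicate 4 array was the farthest from the mean of the region for 5 of 7 members in cortex (Sqle, Lss, Fdft1, Cyp51 and Dhcr7), against 40.8% of all genes, and for 2 of 7 in medulla (Sqle and Idi1), against 31.5%. Sqle was the 1 member with its highest value on both replicate 4 arrays, a pattern shown by 17% of all genes, and Fdft1 the 1 member with its lowest value on both, shown by 16%. The summed intensity of 10 tubular injury genes was highest on these arrays, at 10533 in cortex (1806 to 2422 in the rest of cortex) and at 12753 in medulla against 2489, 1943 and, on medulla replicate 3, 6733. Its part in these levels was not tested. The difference between Sqle and Fdft1 within an array, a pair chosen after its values were seen, was -1.79, -1.89, -1.71 and -0.82 log2 units in cortex and -1.60, -1.77, -1.33 and -0.85 in medulla. It was smallest in size on the replicate 4 arrays and spanned 2.10-fold in cortex and 1.89-fold in medulla, against 0.18 and 0.44 log2 units without those arrays.

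The lowest mean deviation, -0.16, was on medulla replicate 3, where 1 of 7 members, Idi1, lay above the mean of the region, against 45.2% of all genes. This array also stood apart from medulla replicates 1 and 2 in Havcr1, at 8.95 against 4.54 and 4.80, in the summed intensity of the tubular injury genes, at 6733 against 2489 and 1943, and in that of 7 proliferation genes, at 673 against 366 and 416. A summed intensity weighs bright genes most. On this array 4 of 10 tubular injury genes and 4 of 7 proliferation genes lay above the mean of the region. The part of Havcr1 and these lists in the members' levels was not tested. Without medulla replicate 3 the median range of the members in medulla was 0.29, against 0.17 over all genes. Lss and Fdft1 were the pair most alike, with a Pearson r of 0.96 between their deviations over 8 arrays and 0.96 over the 6 without replicate 4. Of all 21 pairs, 12 had a positive r, with a median of 0.088, and 16 had a positive r without replicate 4, with a median of 0.36. The r of Sqle with Fdft1 was -0.57 over 8 arrays and 0.61 over 6, so its sign rests on the replicate 4 arrays. These correlations are descriptions over few arrays that share a normalization.

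The other enzymes of the route were taken from lists of their own. Of 14 listed, 11 were measured, 4 in the early steps and 7 in the late ones. None of the 11 was called between the regions or reached a 2-fold range, so that 0 of 18 enzymes did with the members included. Over all genes 0% were called as higher and 0% as lower. A 2-fold range was reached by 3.6% of all genes in cortex and 3.8% in medulla, so these counts are near the background. Ebp, the sterol isomerase, averaged 6.92 ± 0.06 (SD, n = 4) over the cortex arrays and 6.69 ± 0.09 (SD, n = 4) over the medulla arrays, and its 4 medulla values all lay below the cortex values. It was the 1 enzyme of the 18 whose regions did not overlap, against 2.83% of all genes. Medulla minus cortex was -0.23 (SE 0.06), and limma's adjusted p was 0.875. Pmvk, the phosphomevalonate kinase, differed by 0.15 ± 0.06 (SE), also with limma's adjusted p at 0.875. The widest range was that of Tm7sf2, a sterol reductase, which measured 6.97, 6.86, 6.47 and 6.12 on medulla replicates 1 to 4 and 6.75, 6.60, 6.58 and 6.36 in cortex. It was lowest on the replicate 4 array of both regions, as Fdft1 was. Msmo1, the sterol methyl oxidase, was at 7.68, 7.70, 7.38 and 7.79 over the cortex arrays and at 8.14, 7.69, 7.61 and 7.95 over the medulla arrays.
Acat2, which condenses acetyl-CoA, was at 5.26, 5.57, 5.65 and 5.68 over the cortex arrays and at 5.41, 5.54, 5.00 and 5.35 over the medulla arrays. Like the members, both lists had their lowest mean deviation on medulla replicate 3, at -0.13 each. Mvd, Idi2, Lbr, Nsdhl, Hsd17b7 and Sc5d had differences between -0.19 and 0.11.

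Of 12 listed genes that process or hold SREBP, 11 were measured, 0 were called and 0 reached a 2-fold range, a count near the background of 3.6% in cortex and 3.8% in medulla. Their median range was 0.22 log2 units in cortex and 0.48 in medulla, against 0.28 and 0.38 for the 18 enzymes, and the lists were not tested against each other. Srebf2, which encodes SREBP-2, was at 7.26, 7.32, 7.07 and 7.48 over the cortex arrays and at 7.67, 7.24, 6.87 and 7.56 over the medulla arrays. Insig1, the sterol-regulated retention protein, was at 6.61, 6.71, 6.49 and 6.71 over the cortex arrays and at 7.00, 6.78, 6.20 and 6.65 over the medulla arrays. Both had their highest medulla value on replicate 1 and their lowest on replicate 3, the array on which the members' mean was also lowest. The list as a whole was not low on that array. The mean deviation of its 11 genes there was 0.019, with 6 of 11 above the mean of the region. Srebf1, which encodes the SREBP forms tied to fatty acid synthesis, had a range of 0.09 (cortex) and 0.39 (medulla) log2 units.

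A list drawn up as SREBP-2 targets outside synthesis had 7 measured genes, among them Mylip and Tmem41b. Whether each of the 7 is a target was not tested. Their median range was 0.22 log2 units in cortex and 0.41 in medulla. Genes of fatty acid synthesis had 0.81 and 0.57 over 11, with no test between lists. A 2-fold range in either region was reached by 5.19% of all genes. Among the 7 genes of the first list, the 1 to reach it was Acss2, which makes acetyl-CoA from acetate. It was at 10.13, 10.06, 9.93 and 8.41 over the cortex arrays and at 9.94, 9.97, 9.47 and 8.66 over the medulla arrays, lowest on the replicate 4 array of both regions. Its range was 3.29-fold in cortex and 2.47-fold in medulla, and 0.19 and 0.50 log2 units without the replicate 4 arrays. Among 11 measured genes of fatty acid synthesis, 4 reached a 2-fold range in cortex and 2 in medulla, the same 2 being in both. Over all genes 3.6%, 3.8% and 2.21% did, and the list was not tested against these shares. Acacb, the acetyl-CoA carboxylase of the mitochondrial surface, was at 7.02, 6.56, 6.34 and 5.48 over the cortex arrays and at 6.98, 6.92, 6.43 and 5.93 over the medulla arrays. Thrsp, a regulator of lipogenesis, was at 6.00, 5.18, 4.91 and 4.84 over the cortex arrays and at 6.60, 5.90, 5.58 and 5.01 over the medulla arrays. Acacb and Thrsp were highest on replicate 1 and lowest on replicate 4 of each region.
Without the replicate 4 arrays the range of Acacb was 0.68 and 0.55, under 2-fold, and that of Thrsp 1.09 and 1.02. Thrsp rested on the replicate 1 arrays instead, with a range of 0.35 without cortex replicate 1 and 0.89 without medulla replicate 1. Fads1, the delta-5 fatty acid desaturase, was at 7.49, 7.76, 8.04 and 9.00 in cortex and 7.96, 7.61, 7.47 and 8.41 in medulla. It was highest on the replicate 4 array of both regions and lowest on cortex replicate 1 and medulla replicate 3. Scd2, a stearoyl-CoA desaturase, reached a 2-fold range in cortex, from 7.84 on replicate 1 to 6.84 on replicate 4. Without cortex replicate 4 the cortex range was 0.55 for Fads1 and 0.30 for Scd2, both under 2-fold, so that Thrsp alone of the 4 kept a 2-fold range in cortex. None of these genes was called between the regions.

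**Figure D3:**
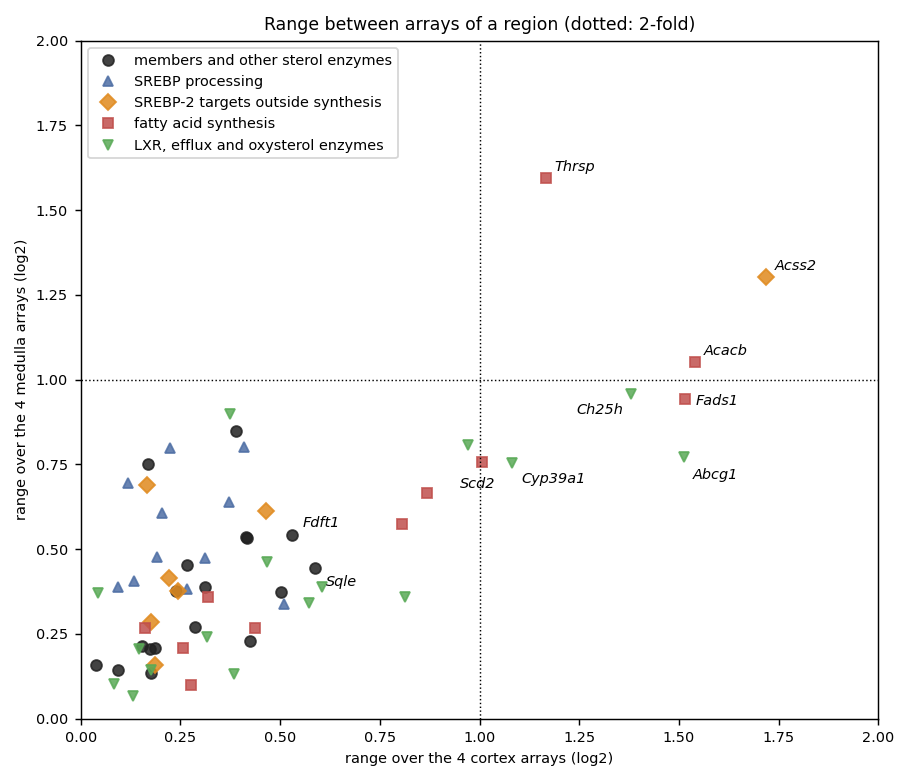
Range between the highest and lowest log2 value over the 4 cortex arrays (x axis) and the 4 medulla arrays (y axis) for the measured members and other genes of sterol and lipid metabolism, with dotted lines at 2-fold. All 18 sterol enzymes lie inside both lines, near the background, as 5.19% of all genes reached a 2-fold range in either region. Acss2, Acacb and Thrsp lie beyond both lines, as 2.21% of all genes do.

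Cholesterol export was described through 10 genes of the LXR pathway, which answers to oxysterols. Abcg1, a cholesterol exporter, was the 1 gene of the 10 with a 2-fold range, in cortex, against 3.6% of all genes there. It measured 7.09, 6.31, 6.00 and 5.58 over the cortex arrays. In medulla it measured 6.96, 6.76, 7.08 and 6.31. Its range in cortex was 1.09 without replicate 4, still over 2-fold, and 0.73 without replicate 1. Scarb1, the receptor for high density lipoprotein, had its highest values on the replicate 4 arrays, 6.55 in cortex against 5.58 to 6.01 on the others and 6.53 in medulla against 5.72 to 5.85. Nr1h3, which encodes the receptor LXR alpha, averaged 7.26 ± 0.08 (SD, n = 4) over the cortex arrays and 6.97 ± 0.06 (SD, n = 4) over the medulla arrays, without overlap. It was the 1 gene of the 10 without overlap, against 2.83% of all genes. Medulla minus cortex was -0.29 (SE 0.05), which did not pass, with limma's adjusted p at 0.875.

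**Figure D4:**
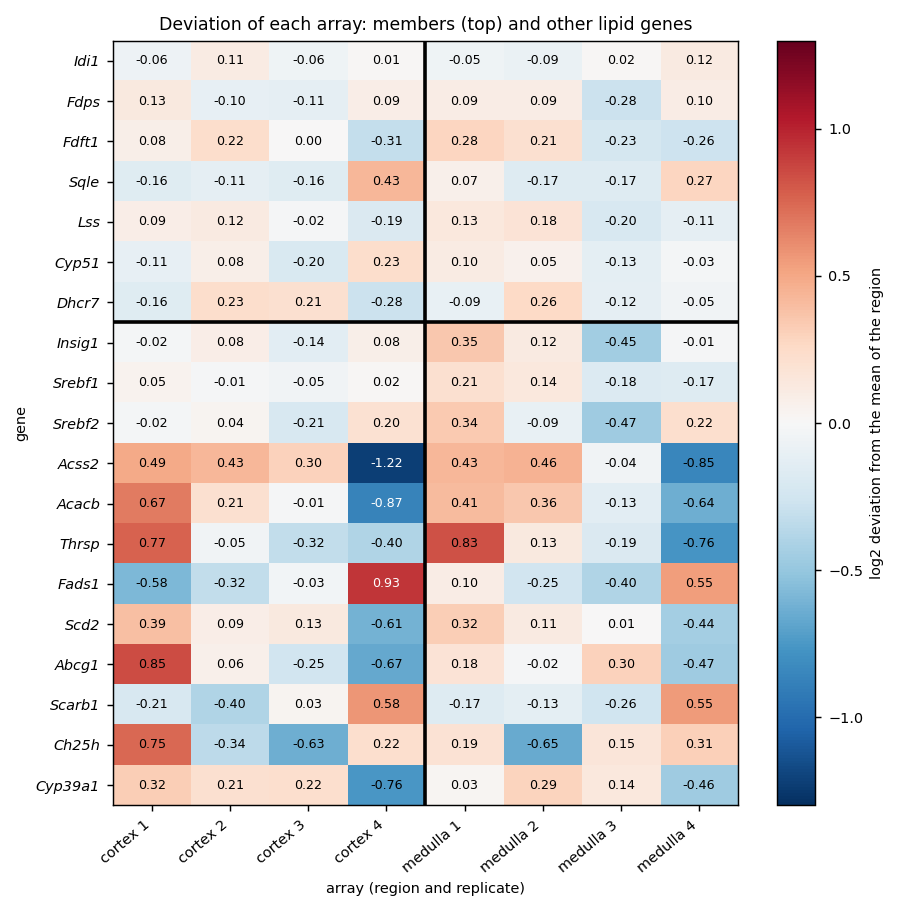
Log2 deviation of each array from the mean of its region for the 7 measured members (above the line) and 12 other lipid genes, with columns for the 4 cortex and 4 medulla arrays and the value printed in each cell. The members stay within 0.43 of their region mean, while Acss2 reaches -1.22 on cortex replicate 4.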

How the data were processed

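Total RNA of homogenised rat kidney was, per the labels' protocols, biotinylated and put on Affymetrix arrays that cover whole transcripts. The table the authors deposited holds a linear intensity for each probe set. The submitters' processing notes name Affymetrix Expression Console and RMA, without versions. The values were logged to base 2 with no offset. Detection calls were not used. Of 29870 probe sets, 18511 had 1 gene symbol, 575 several and 10784 none here. Through Entrez identifiers, 18394 matched the RefSeq table of assembly GRCr8, which changed 0 symbols. For 291 genes with several probe sets the one with the highest mean was kept, which gave 18166 genes. No arrays shared more than 1 identical value.

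The contrast of medulla and cortex used lmFit and eBayes of limma 3.58.1 (R 4.3.3), with Benjamini-Hochberg adjustment over all genes, which was tested on simulated data, and with an exact permutation test. Figures were drawn with matplotlib 3.10.9. The precision is limited by 4 arrays per region. The members, gene lists and tests were chosen with earlier results of these data known. Named genes are the members, every measured enzyme of the route, pathway genes called or among the 3 widest of their list by the smaller regional range, and the genes most and least like the members. Insig1, Srebf1, Scd2, Nr1h3, Soat1, Fads2 and Coq2 were named after their values were seen. Alternatives were quantile normalization, median centring, the mean of probe sets, a filter at the 30th percentile of mean signal, an offset of 32, each array left out, both replicate 4 arrays left out, a trended robust prior, array weights and other thresholds.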

Additional observations from a re-analysis of the deposited data

Results flagged for a closer look

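In 34 genes and the difference between Sqle and Fdft1, 70 groups of 4 arrays were checked for an array far from the other 3, by the gap relative to the range of the group. There were 10, of which 7 were on a replicate 4 array, with Sqle on cortex replicate 4 entering both alone and in the pair. Over all genes the replicate 4 array was the farthest from the mean of the region for 40.8% in cortex and 31.5% in medulla. Chance would flag about 1 in 20 groups of genes taken without regard to spread, a rate that does not hold here, because most of these genes were taken as the widest of their lists and the pair after its values were seen.

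Among the members, the cortex replicate 4 value of Sqle, 7.11, stood above 6.52 to 6.57 in the rest of cortex. The medulla replicate 3 value of Fdps, 6.52, stood below 6.89 to 6.90 in the rest of medulla. The difference of Sqle minus Fdft1 was -0.82 on cortex replicate 4 against -1.89 to -1.71. This pair was chosen after its values were seen.

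On cortex replicate 4, Acss2 measured 8.41 against 9.93 to 10.13, and Cyp39a1, an oxysterol hydroxylase, measured 4.91 against 5.88 to 5.99. On the same array Erlin2, which helps degrade the reductase of the route, measured 7.13 against 7.59 to 7.64, and Npc1, the lysosomal cholesterol transporter, 6.30 against 5.95 to 6.01. Scarb1 measured 6.53 on medulla replicate 4 against 5.72 to 5.85. Fntb, a farnesyltransferase subunit, measured 5.10 on cortex replicate 3 against 5.35 to 5.39. Ch25h, which makes an oxysterol from cholesterol, measured 6.17 on medulla replicate 2 against 6.98 to 7.13.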

How the results depend on the processing

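No member was called in any setting, and over all genes 0 were called in each too, by limma's adjusted p alone as well. No paired analysis was possible because the labels pair no arrays across the regions. With 1 array left out, the difference ran from 0.10 to 0.34 for Sqle and from -0.25 to -0.084 for Dhcr7, but its sign turned for the other 5: from -0.068 to 0.0089 for Idi1, -0.068 to 0.064 for Fdps, -0.068 to 0.12 for Fdft1, -0.11 to 0.019 for Lss and -0.041 to 0.10 for Cyp51. With array weights the difference of Fdps was 0.050. The cause was not tested. The count of members with a 2-fold range stayed at 0, and at a 1.5-fold range it was 1 in cortex, Sqle. Over all genes the count with a 2-fold range was 654 in cortex, 691 in medulla and 402 in both. It ran from 145 to 654, from 170 to 691 and from 84 to 379 with 1 array left out (145 without cortex replicate 4 and 170 without medulla replicate 4). It was 145, 170 and 45 without both replicate 4 arrays, 370, 372 and 226 with an offset of 32, 2063, 2738 and 1475 at 1.5-fold and 186, 157 and 96 at 3-fold. Of the 8 genes most like the members, 1 to 6 were again among the 8 with 1 array left out and 1 without both replicate 4 arrays. The range of a member moved by under 1 SD in 185 of the recomputed values and by more in 11. Values near the lower quartile, 4.44 to 4.48 log2, limit any fold that starts there, but no member lay there.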

Other observations

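Genes that store, release or divert sterols were described in the same way. Of 9 measured genes of cholesterol storage and lysosomal release and 9 of the non-sterol isoprenoid branches, 0 reached a 2-fold range in either region. Over all genes 5.19% did, so these counts are near that background. Soat1, which esterifies cholesterol, differed between medulla and cortex by 0.19 ± 0.06 (SE), and Pggt1b, a prenyltransferase subunit, by 0.27 ± 0.08. Coq2, of ubiquinone synthesis, differed by -0.23 ± 0.08, and Fads2, a desaturase of fatty acid synthesis, by -0.28 ± 0.11. limma's adjusted p over all genes was 0.875 for each, so none passed. Among 6 hydroxylases of oxysterols and sterol side chains, Ch25h and Cyp39a1 reached a 2-fold range in cortex, against 3.6% of all genes. Ch25h was at 6.85, 5.76, 5.47 and 6.32 over the cortex arrays and at 7.02, 6.17, 6.98 and 7.13 over the medulla arrays. Without cortex replicate 1 its cortex range was 0.85, under 2-fold, against 1.38, and without medulla replicate 2 its medulla range was 0.15 against 0.96. Cyp39a1 was at 5.99, 5.88, 5.89 and 4.91 over the cortex arrays and at 5.80, 6.06, 5.91 and 5.30 over the medulla arrays, and its cortex range was 0.11 without replicate 4.

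The genes whose deviations were most like the members' mean over the 8 arrays were Tmem98 with a Pearson r of 0.98, Emc1 with 0.98 and Ddi2 with 0.98, followed by Or10s1, Sema5b, Cope, Arfip2 and Eri3, among 12709 genes above the 30th percentile of mean signal that are no members. An r of at least 0.9 was reached by 79 of them and one of -0.9 or below by 85, and the least like were Wbp11-ps3 with -0.98, Psme1 with -0.97, Tbc1d15 with -0.97 and Cep290 with -0.96. The r of each member with the mean of the other members ran from -0.24 for Sqle to 0.57 for Lss over 8 arrays. Without both replicate 4 arrays it ran from -0.13 for Idi1 to 0.98 for Fdft1. These are not set against the genes above, which were picked for their high r. The 8 highest genes all had their lowest medulla value on medulla replicate 3, as the members' mean did. Their selection by likeness to that mean favours this, so it is no separate observation. These r values are descriptions over arrays that share a normalization, and between 1 and 6 of the 8 highest kept their place when single arrays were left out.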
